A study of Mus musculus with 6 samples.

Results

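The genes described are the 3 ligands of the TGF-beta family proper (*Tgfb1*, *Tgfb2* and *Tgfb3*), their 3 receptors (*Tgfbr1*, *Tgfbr2* and *Tgfbr3*) and 4 nuclear corepressors of the pathway (*Tgif1*, *Tgif2*, *Ski* and *Skil*). They were chosen by symbol, and all 10 were present among the 20409 features of the count table. Bulk poly(A) RNA-seq was performed on villus epithelium of the mouse duodenum, with 1 library from each of 3 double mutant and 3 wild-type mice. Double mutant mice, labelled Smad4 knockout; beta-catenin GOF, carried *Smad4* fl/fl, *Ctnnb* exon3 fl/wt and the Villin-CreERT2 transgene on a C57BL6-enriched background. Villin drives the recombinase throughout the intestinal epithelium, and tamoxifen was injected on 4 consecutive days at 0.05 g/kg, with collection on day 7. Wild-type controls were littermates that received no tamoxifen and whose genotype at the floxed alleles and the transgene was not given in the sources used here, so the drug and the mutations cannot be told apart. Each group held 1 male, which was mouse 1 in both, and 2 females, and the age was not given in the sources used here.

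TGF-beta ligands are secreted in a latent form, and once released they bind the type II receptor, which recruits and phosphorylates the type I receptor. The type I receptor then phosphorylates SMAD2 and SMAD3, which enter the nucleus with SMAD4 and regulate transcription. TGIF and SKI family proteins bind the SMAD complexes on DNA and recruit histone deacetylases, which limits the response. The pathway is known to restrain the growth of intestinal epithelial cells, and *SMAD4* and *TGFBR2* are tumor suppressor genes of the human intestine.

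Libraries held 19678507 to 26337318 counts per mouse. Values are given as CPM, counts per 1000000 after TMM scaling, and 3 counts corresponded to 0.125 to 0.163 CPM. *Smad4* itself measured 148 ± 30.3 CPM in wild-type mice against 31.7 ± 5.40 CPM in double mutants (SD, n = 3 each), a log2 fold change of -2.22 with an adjusted p of 0.000145 by edgeR's quasi-likelihood test. *Ctnnb1* differed by -0.15 (adjusted p = 0.359, same test), and counts per gene do not separate the deleted exon 3. Wild-type mouse 1 stood apart from the other libraries on the second principal component, at 54.97 against -35.18 and -34.54 for the other wild-type mice and 2.085 to 8.162 for the double mutants. Goblet cell markers took 0.0111% of its counts against 1.07% and 1.04% in the other wild-type mice. T cell markers took 0.0100% against 0.0210% and 0.0219%. It was also the only wild-type male. The double mutant male, mouse 1, lay at 4.502 on that component and at 0.527% goblet cell markers, beside 8.162 and 2.085 and 0.466% and 0.514% in the double mutant females. Calls of the TGF-beta genes that rest on wild-type mouse 1 are given with and without it.

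Of the 13346 genes with enough counts to test, 36.8% had an adjusted p under 0.05 by edgeR's quasi-likelihood test, 19.7% higher and 17.0% lower in double mutant villi. Scaling by library size alone moved the median log2 fold change of all tested genes from 0.02 to 0.22 and the calls from 2632 higher and 2273 lower to 3732 higher and 1425 lower. Of the 10 TGF-beta genes, 9 were tested and 2 passed, *Tgfbr2* and *Tgif1*, both higher in the double mutant. Both also exceeded a log2 fold change of 2, and 5.30% of tested genes passed the test with a change beyond 2 in either direction, 3.04% upward. *Tgfb2* had too few counts to be tested. Without wild-type mouse 1, 5 of the 9 passed, with *Tgfb3*, *Tgfbr3* and *Skil* lower in addition, beside 37.4% of all genes tested in that fit. Normalized counts of the groups did not overlap for the same pair of tested genes, compared with 52.4% of all tested genes.

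**Figure D1:**
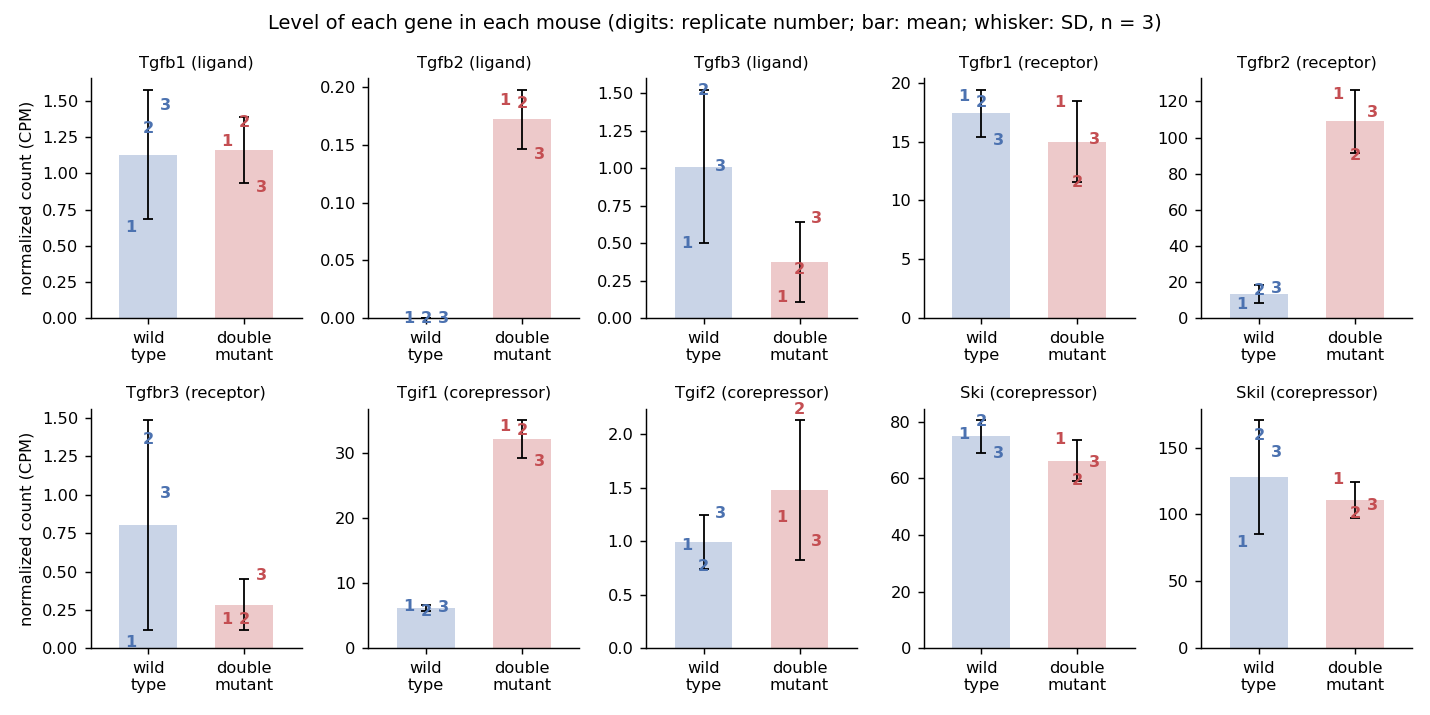
Normalized count (CPM, linear axes from 0) of each of the 10 genes in each mouse, wild type on the left and double mutant on the right of each panel; digits are replicate numbers, bars are means and whiskers are SD (n = 3). *Tgfbr2* lies at 7.58 to 16.6 CPM in wild-type mice and at 90.0 to 124 CPM in double mutants, *Tgif1* at 5.60 to 6.46 and 28.7 to 34.1 CPM, *Tgfb2* is at 0 in every wild-type mouse, and the groups overlap in the other 7 panels.

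Promoter sequence is shown for the genes that passed the test. The RefSeq promoter table of GRCm38.p6 held 12 start sites for 7 of the 10 genes, *Tgfb1*, *Tgfb2*, *Tgfbr1*, *Tgfbr2*, *Tgif1*, *Tgif2* and *Ski*, and the 250 bases upstream of each were placed on mm9 by exact match. *Tgfb3*, *Tgfbr3* and *Skil* were not matched. The SMAD box CAGAC, searched like every motif here on both strands, occurred upstream of 6 of the 12 start sites and of 42.2% of all 32851 promoters in the table. The TCF site CTTTGAT occurred upstream of 1, start site 5 of *Tgif1*, and of 3.21% of all promoters. The TGIF site CTGTCA and the SMAD palindrome GTCTAGAC occurred in none of the 12, and in 15.9% and 0.167% of all promoters. The palindrome shares letters with the SMAD box but does not contain all of it. The stretches below read 5′ to 3′ on the strand of the gene and end at the base before the start site, with the matching letters in capitals. They come from the single *Tgfbr2* start site, chr9:116084482-116084731 (mm9, minus strand), and start sites 1 and 5 of the 5 of *Tgif1*, chr17:71202873-71203122 and chr17:71196118-71196367 (mm9, minus strand).
Tgfbr2: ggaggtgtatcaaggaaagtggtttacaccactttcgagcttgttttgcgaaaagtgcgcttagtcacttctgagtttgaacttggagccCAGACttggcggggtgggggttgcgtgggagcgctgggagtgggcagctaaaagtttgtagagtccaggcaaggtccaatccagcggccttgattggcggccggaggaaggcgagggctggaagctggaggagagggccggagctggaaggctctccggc
Tgif1, start site 1: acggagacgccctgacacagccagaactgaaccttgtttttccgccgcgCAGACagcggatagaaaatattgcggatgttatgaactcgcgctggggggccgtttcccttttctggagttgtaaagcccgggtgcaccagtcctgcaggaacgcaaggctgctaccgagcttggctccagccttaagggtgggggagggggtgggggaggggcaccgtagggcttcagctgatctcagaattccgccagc
Tgif1, start site 5: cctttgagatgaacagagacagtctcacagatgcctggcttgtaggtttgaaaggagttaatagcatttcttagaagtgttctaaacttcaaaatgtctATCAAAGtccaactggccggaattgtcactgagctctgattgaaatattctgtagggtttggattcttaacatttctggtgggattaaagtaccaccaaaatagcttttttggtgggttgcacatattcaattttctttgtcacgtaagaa
The SMAD box begins 160 bases upstream of the *Tgfbr2* start site and 201 bases upstream of *Tgif1* start site 1, and the TCF site begins 151 bases upstream of *Tgif1* start site 5. Of the *Tgif1* start sites not shown, site 2 has SMAD boxes 191 and 59 bases upstream. Site 4 has a SMAD box 17 bases upstream, and site 3 has no match. Outside these genes, the SMAD box occurred upstream of *Tgfb2*, which was not tested, and of start site 2 of *Tgfbr1*, which did not pass. Matching letters describe the sequence and do not show that a factor binds there. Counts per gene cannot tell which *Tgif1* start site was used.

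Ligand transcripts were scarce in both groups, and none of the 3 passed the test. *Tgfb1* (chr7:26472021-26490096, plus strand) encodes the ligand that is most widely expressed in the body. It measured 0.625, 1.31 and 1.47 CPM in wild-type mice 1 to 3 and 1.22, 1.35 and 0.902 CPM in double mutant mice 1 to 3. The groups overlapped, and wild-type mouse 1 was lowest. The log2 fold change was 0.04 (95% confidence interval -0.95 to 1.03, adjusted p = 0.948 by edgeR's quasi-likelihood test), so differences from 0.519-fold to 2.04-fold are within the error, and its sign turned to -0.26 without wild-type mouse 1.

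*Tgfb2* (chr1:188447065-188529871, minus strand), whose product depends on betaglycan for efficient receptor binding, had no counts in any wild-type mouse and 4, 4 and 3 counts in double mutant mice 1 to 3. These values lie at about the 3-count floor. With no filter on low counts its adjusted p was 0.0719 (edgeR's quasi-likelihood test), and no fold is given. *Tgfb3* (chr12:87397694-87419991, minus strand), a ligand best known from palate development, had 12, 28 and 20 counts in wild-type and 3, 7 and 14 counts in double mutant mice 1 to 3. In CPM this was 0.500, 1.52 and 1.01 against 0.141, 0.325 and 0.665. Only wild-type mouse 1 fell within the range of the double mutants. Its log2 fold change was -1.40 (SE 0.65), with an interval of -2.87 to 0.07 and an adjusted p of 0.123 by edgeR. Without wild-type mouse 1 it was -1.73 (adjusted p = 0.0468), and among females alone -1.34 (adjusted p = 0.0878 by the same test). It was -0.98 without wild-type mouse 2 (adjusted p = 0.354) and -2.07 without double mutant mouse 3 (adjusted p = 0.0822, same test).

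Of the 3 receptor genes, *Tgfbr2* rose and the other 2 did not pass the test. *Tgfbr2* (ENSMUSG00000032440, chr9:115993415-116084383, minus strand, mm9), the type II receptor that binds the ligand, spans 91.0 kb with 8 exons in its longest transcript. Its counts were 182, 287 and 329 in wild-type mice 1 to 3 and 2636, 1940 and 2407 in double mutant mice 1 to 3. In CPM this was 7.58, 15.6 and 16.6 against 124, 90.0 and 114. Every double mutant lay well above every wild-type mouse, and wild-type mouse 1 was again the lowest. The mean rose from 13.3 ± 4.96 to 109 ± 17.4 CPM (SD, n = 3), an 8.26-fold change with a 95% confidence interval of 5.08 to 13.4. The log2 fold change was 3.05 (SE 0.30) with an adjusted p of 0.000438 by edgeR's quasi-likelihood test. It ranked 99th by rise among the 13346 tested genes and passed with every mouse left out in turn, at log2 fold changes of 2.76 to 3.24, the lowest of them without wild-type mouse 1.

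*Tgfbr1* (chr4:47366094-47427803, plus strand), the type I receptor kinase that phosphorylates SMAD2 and SMAD3, did not pass. Wild-type mice 1 to 3 measured 18.8, 18.3 and 15.1 CPM and double mutant mice 18.3, 11.5 and 15.2 CPM, and the groups overlapped. The log2 fold change was -0.22 (interval -0.66 to 0.23, adjusted p = 0.416 by edgeR), which leaves room for a fold from 0.635 to 1.17. The ratio of *Tgfbr2* to *Tgfbr1*, each per kilobase of exon, was 0.326, 0.690 and 0.889 in wild-type and 5.46, 6.35 and 6.08 in double mutant mice 1 to 3. *Tgfbr1* was thus the more abundant of the pair in every wild-type mouse and the less abundant in every double mutant. The ratio averaged 0.635 ± 0.285 in wild-type mice against 5.96 ± 0.454 in double mutants (SD, n = 3), with p = 0.1 by a two-sided exact permutation test, the smallest p that 3 mice against 3 allow.

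*Tgfbr3* (chr5:107535589-107718648, minus strand) encodes betaglycan, a co-receptor without kinase activity that presents ligand. It had 1, 25 and 20 counts in wild-type mice 1 to 3 and 4, 4 and 10 counts in double mutant mice 1 to 3, or 0.0417, 1.36 and 1.01 against 0.188, 0.186 and 0.475 CPM. Wild-type mice 2 and 3 lay above all double mutants and wild-type mouse 1 below them. The log2 fold change was -1.46 (SE 0.95, interval -3.63 to 0.71, adjusted p = 0.261 by edgeR) with all mice. It was -2.05 without wild-type mouse 1 (adjusted p = 0.0189) and -1.83 among females alone (adjusted p = 0.0418, same test). It was -0.85 without wild-type mouse 2 (adjusted p = 0.599, same test), -2.04 without double mutant mouse 3 (0.247) and -0.53 by limma-voom with all mice (adjusted p = 0.762).

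**Figure D2:**
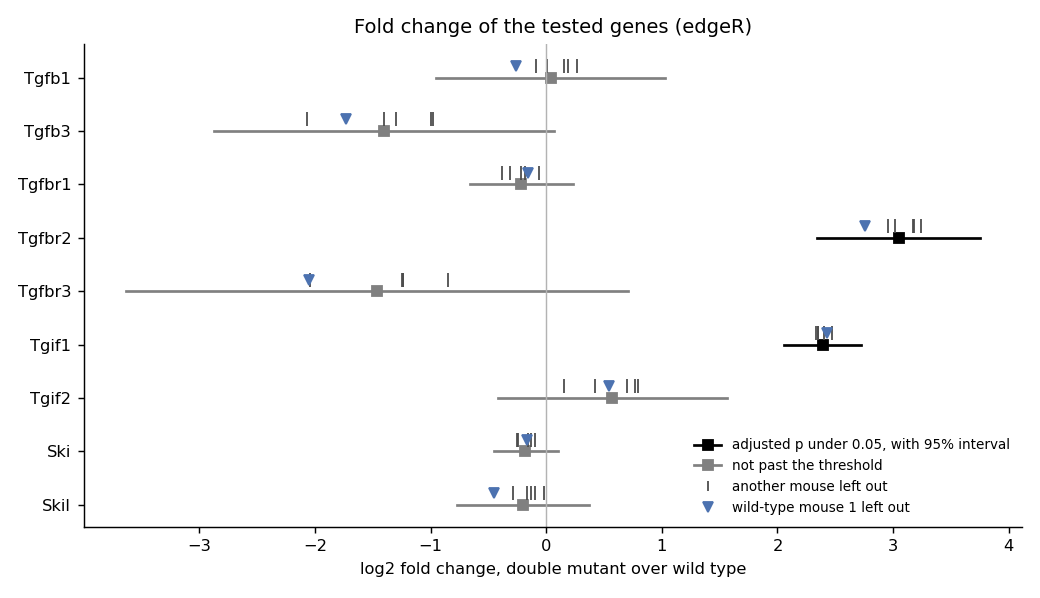
Log2 fold change (double mutant over wild type, edgeR) of the 9 tested genes, with bars for the 95% confidence interval. The intervals of *Tgfbr2* (2.34 to 3.75) and *Tgif1* (2.06 to 2.72) lie above 0, and those of the other 7 genes include 0, the widest being that of *Tgfbr3* (-3.63 to 0.71).

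Among the corepressors, *Tgif1* rose and the other 3 did not pass the test. *Tgif1* (ENSMUSG00000047407, chr17:71193545-71202886, minus strand, mm9) encodes a TALE homeodomain protein that binds SMAD2 and SMAD3 and recruits corepressors. Its counts were 155, 103 and 125 in wild-type and 726, 722 and 605 in double mutant mice 1 to 3. This corresponded to 6.46, 5.60 and 6.32 CPM against 34.1, 33.5 and 28.7 CPM. Values within each group were close together, the groups were far apart, and wild-type mouse 1 lay close to the other wild-type mice. The mean rose from 6.13 ± 0.458 to 32.1 ± 2.94 CPM (SD, n = 3), a 5.23-fold change with an interval of 4.17 to 6.57. The log2 fold change was 2.39 (SE 0.14) with an adjusted p of 3.53e-05 by edgeR's quasi-likelihood test, the smallest of the 10 genes and 30th among all tested genes. It passed with every mouse left out in turn, at 2.33 to 2.47.

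*Tgif2* (chr2:156665813-156681306, plus strand), the paralog of *Tgif1*, was scarce. Wild-type mice 1 to 3 measured 0.958, 0.762 and 1.26 CPM and double mutant mice 1.22, 2.23 and 0.997 CPM, with overlapping groups. The log2 fold change was 0.57 (interval -0.42 to 1.56, adjusted p = 0.335 by edgeR), so a rise as large as 2.95-fold is within the error. The annotation places the lincRNA 5430405H02Rik on the opposite strand of *Tgif2*, and since the strand setting of the counting was not given in the sources used here, reads of the pair may not be separated. Per kilobase, the ratio of *Tgif1* to *Tgif2* was 4.67 to 6.87 in wild-type and 14.0 to 26.9 in double mutant mice, without overlap (p = 0.1, two-sided exact permutation test).

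*Ski* (chr4:154528184-154596701, minus strand), the founding SKI corepressor, measured 75.6, 80.2 and 68.7 CPM in wild-type and 73.8, 59.4 and 65.6 CPM in double mutant mice 1 to 3. The groups overlapped, and the log2 fold change was -0.18 (interval -0.45 to 0.10, adjusted p = 0.294 by edgeR), which turned to 0.02 when libraries were scaled by their totals alone. At 1280 to 1816 counts per mouse, folds below 0.731 or above 1.07 lay outside the interval. *Skil* (chr3:30993980-31021499, plus strand) encodes SnoN, a SKI relative that TGF-beta signaling both degrades and induces. It measured 79.4, 159 and 146 CPM in wild-type and 126, 101 and 107 CPM in double mutant mice 1 to 3. Wild-type mouse 1 lay below and the other wild-type mice above all double mutants. With all mice the log2 fold change was -0.20 (SE 0.25, adjusted p = 0.56 by edgeR). Without wild-type mouse 1 it was -0.45 (adjusted p = 0.0245), and among females alone -0.55 (adjusted p = 0.00594, same test). It was -0.02 without wild-type mouse 2 (adjusted p = 0.969), -0.10 without wild-type mouse 3 (0.818) and -0.01 with library size alone (0.978).

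**Figure D3:**
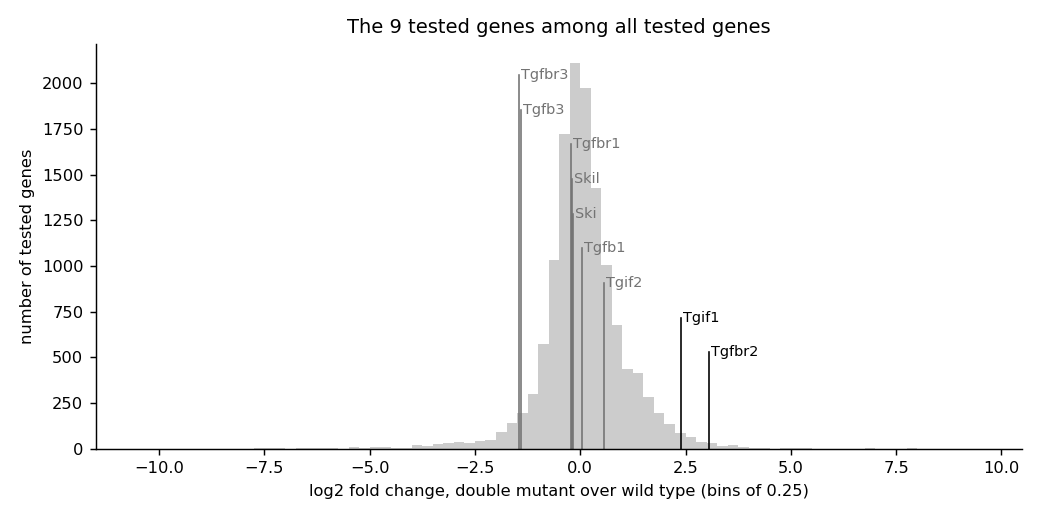
Histogram of log2 fold changes (double mutant over wild type) of the 13346 tested genes in bins of 0.25, with vertical lines at the 9 tested TGF-beta genes. *Tgif1* (2.39) and *Tgfbr2* (3.05) lie in the upper tail, *Tgfb3* (-1.40) and *Tgfbr3* (-1.46) in the lower part, and the other 5 genes between -0.22 and 0.57.

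To compare levels between genes, CPM was divided by the length of all annotated exons in kilobases (RPKM). In wild-type villi the corepressors *Ski* (13.5 RPKM) and *Skil* (13.2 RPKM) were the most abundant, with overlapping ranges. *Tgfbr1* followed at 2.66 RPKM, above *Tgif1* (1.82 RPKM) and *Tgfbr2* (1.64 RPKM), whose ranges overlapped. *Tgfb1*, *Tgif2*, *Tgfb3* and *Tgfbr3* lay at 0.443, 0.316, 0.299 and 0.123 RPKM, and each overlapped the next. In double mutant villi, the range of *Tgfbr2* (mean 13.5 RPKM) overlapped that of *Ski* (11.9 RPKM), which overlapped that of *Skil* (11.5 RPKM). With exon lengths *Tgif1* came next at 9.53 RPKM, and *Tgfbr1* (2.29 RPKM) lay below it, neither overlapping its neighbour. The remaining genes stayed at or below 0.471 RPKM on average. Lengths of the longest annotated transcript in place of all exons raised *Tgif1* to 3.56 RPKM in wild-type mice and to 18.7 RPKM in double mutants, so that its mean passed those of *Tgfbr1* (3.02 RPKM) in wild-type mice and of *Skil* (16.6 RPKM), *Tgfbr2* (13.5 RPKM) and *Ski* (12.0 RPKM) in double mutants. They also raised *Skil* to 19.0 RPKM in wild-type mice and 16.6 RPKM in double mutants, above *Ski* in both (13.6 and 12.0 RPKM) and above *Tgfbr2* in double mutants. The order among *Tgfbr2*, *Ski*, *Skil* and *Tgif1*, and which of their ranges overlap, therefore depends on the length used.

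**Figure D4:**
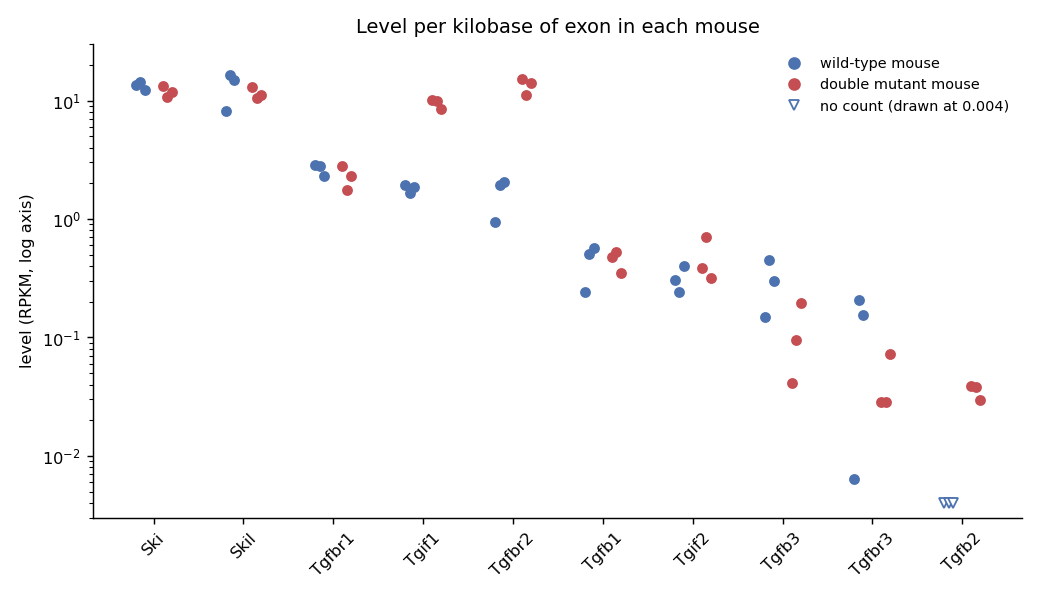
Level per kilobase of exon (RPKM, log axis) of each gene in each mouse. *Tgfbr2* moves from a mean of 1.64 RPKM in wild-type villi to 13.5 RPKM in double mutant villi, next to *Ski* and *Skil*, and *Tgif1* from 1.82 to 9.53 RPKM.

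Summed by role, receptor transcripts measured 4.43 ± 0.565 RPKM in wild-type mice against 15.9 ± 2.68 RPKM in double mutants (SD, n = 3), without overlap. Corepressor transcripts measured 28.8 ± 4.40 and 33.4 ± 2.95 RPKM and ligand transcripts 0.741 ± 0.306 and 0.599 ± 0.0542 RPKM, both with overlapping groups. With the longest transcript lengths the corepressor sums became 29.6 to 41.7 RPKM in wild-type mice and 44.9 to 52.4 RPKM in double mutants, without overlap, so that comparison depends on the length used. *Tgfbr2* made up 1.64 and 13.5 RPKM of the receptor sums. The ratio of *Tgif1* to *Skil* per kilobase was 0.102 to 0.234 in wild-type and 0.772 to 0.958 in double mutant mice, while that of *Skil* to *Ski* was 0.985 ± 0.334 and 0.964 ± 0.024 (exact permutation p = 0.1 and 1, two-sided).

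Markers of cell types were measured in the same libraries. Crypt stem cell markers took 0.00963 to 0.0223% of counts in wild-type and 0.0511 to 0.0668% in double mutant mice, without overlap, and 8 of 12 passed the test upward, in the same direction as *Tgfbr2* and *Tgif1*. Paneth cell markers took 0.112 to 0.420% and 0.826 to 1.54%, but 1 of 7 passed, *Reg3g*, an antimicrobial lectin at 1220, 2790 and 2880 CPM in wild-type mice 1 to 3 and 7480, 14300 and 9990 CPM in double mutants, and the median log2 fold change of the list was -1.31. Without wild-type mouse 1, 2 of the 7 were higher and 2 lower. Goblet cell markers took 0.0111 to 1.07% and 0.466 to 0.527%, with 1 of 8 higher and none lower with all mice, and 1 higher and 6 lower without wild-type mouse 1. Enterocyte markers took 6.13 to 6.81% and 4.35 to 4.50%, also without overlap. Tuft cell markers took 0.0114 to 0.0170% and 0.00210 to 0.00213%, with 7 of 8 tested lower, and enteroendocrine cell markers 0.0232 to 0.0362% and 0.0113 to 0.0122%, with 8 of 9 lower, both without overlap. In bulk samples, a change in the share of cells of a type and a change in RNA per cell cannot be told apart, and the part of these cell types in the 2 rises was not tested. Mesenchyme markers, 11 of 14 in the table, summed to 5.58 to 10.7 CPM of the library total in wild-type mice and 8.34 to 15.6 CPM in double mutants, with *Col1a2*, *Col3a1*, *Col6a2* and *Pdgfra* at 3 counts or fewer in every mouse. None of the 3 tested passed. Double mutant mouse 1 had 40, 35 and 47 counts of the smooth muscle genes *Acta2*, *Des* and *Myh11*, against 3 or fewer in every wild-type mouse, and without that mouse *Tgfbr2* and *Tgif1* stood at log2 fold changes of 2.96 and 2.35 (adjusted p = 0.0033 and 0.000566 by edgeR). Endothelium markers, 6 of 9 in the table, summed to 4.02 to 6.75 and 7.17 to 8.03 CPM, without overlap, with *Kdr* at 3 counts or fewer in every mouse. The 1 of 4 tested that passed, *Plvap*, went the other way, from 25, 14 and 12 counts in wild-type mice 1 to 3 to none in any double mutant. The part of these cell types in the 2 rises was not tested either. T cell markers, 14 of 15 in the table, summed to 100 to 219 and 103 to 150 CPM. Within the wild-type group, the share of every marker list measured other than those of enterocytes and tuft cells was lowest in mouse 1, stromal and leukocyte lists included, as were *Tgfb1*, *Tgfb3*, *Tgfbr2*, *Tgfbr3* and *Skil*. Of the T cell markers, 2 of 13 passed downward with all mice against 10 of 13 without that mouse. The part of these cell types in the values of the 5 genes was not tested.

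Other genes of the pathway were read from 8 lists of 126 genes, of which 107 were in the table and 79 were tested. Of these, 13 were higher and 17 lower in the double mutant and 49 did not pass, beside 36.8% of all tested genes called. With libraries scaled by their totals alone, 16 were higher and 13 lower, and without wild-type mouse 1 the calls were 12 higher and 20 lower. Leaving out any other mouse gave 21 to 25 calls. The higher calls among them numbered 6 without double mutant mouse 1, 8 without double mutant mouse 3 or wild-type mouse 3, and 9 without double mutant mouse 2 or wild-type mouse 2, beside 13 to 19 lower calls.

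In ligand storage and activation, 1 of 6 tested genes rose and 1 fell, with a median log2 fold change of -0.36 against 0.02 for all tested genes. *Mmp14*, a membrane protease that can release latent TGF-beta, rose from 19.1 ± 5.80 to 39.6 ± 4.12 CPM, at a log2 fold change of 1.05 (adjusted p = 0.00699 by edgeR). *Furin*, the convertase that cleaves the ligand precursors, fell from 190 ± 14.7 to 112 ± 7.56 CPM (-0.76, adjusted p = 0.0013 by edgeR). Without wild-type mouse 1, 3 genes of this list were lower. Among accessory receptors, 1 of 9 passed, *Hgs* at -0.38 (median of the list -0.17), and it lost its call without double mutant mouse 1 or 3 or wild-type mouse 2 or 3, with adjusted p up to 0.106.

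Of 7 tested SMAD genes, 3 fell and 1 rose (median -0.45). *Smad4*, the gene deleted by design, was among the 3. Of the inhibitory SMADs, SMAD7 is induced by the pathway and blocks its receptors. *Smad6* measured 32.9, 41.6 and 30.2 CPM in wild-type and 1.36, 0.649 and 0.475 CPM in double mutant mice 1 to 3, a log2 fold change of -5.39 (adjusted p = 5.49e-05 by edgeR). *Smad7* measured 102, 140 and 116 CPM and 21.0, 26.5 and 32.2 CPM, a log2 fold change of -2.17 (adjusted p = 0.000147 by edgeR). *Smad1* passed upward at 0.37 (adjusted p = 0.0406 by edgeR), but kept its call in only 1 of the 6 fits that each left out 1 mouse, the fit without wild-type mouse 2, with adjusted p up to 0.144.

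Of 13 ubiquitin ligases and deubiquitinases that act on receptors and SMADs, 2 fell and none rose (median -0.09). *Itch* fell from 190 ± 26.6 to 86.5 ± 11.4 CPM (-1.14, adjusted p = 0.000723 by edgeR). *Smurf1*, at -0.45 (adjusted p = 0.0311 by edgeR), kept its call only without wild-type mouse 1. Corepressor partners had 4 of 15 higher and 2 lower (median 0.10). *Hdac2*, a histone deacetylase of the complexes that TGIF and SKI recruit, lay between 12.1 and 13.9 CPM in wild-type mice and rose to between 27.6 and 31.5 CPM in double mutants (1.18, adjusted p = 0.000379 by edgeR). *Dach1*, a SKI relative, passed at 1.64, and lost its call in all fits with 1 mouse left out except that without double mutant mouse 2. *Ncor1* (-0.76) lost its call without double mutant mouse 2 or 3 (adjusted p up to 0.0707).

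Of the TALE homeobox genes related to *Tgif1*, 1 of 7 rose and 1 fell (median -0.14). *Pbx4* fell from 3.82 ± 1.47 to 0.249 ± 0.134 CPM (-3.91, adjusted p = 0.00082 by edgeR).

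Genes known to respond to TGF-beta moved in both directions, with 5 of 20 tested higher and 8 lower (median -0.24), and 5 and 10 without wild-type mouse 1. *Fn1*, fibronectin, fell from 89.1, 79.8 and 96.1 CPM in wild-type mice 1 to 3 to 0.798, 0.464 and 0.285 CPM in double mutant mice 1 to 3 (-7.40, adjusted p = 7.06e-06 by edgeR). *Smad7*, which also belongs to this list, was the other of the deepest falls. *Pdgfb*, a growth factor, passed at 1.66, with adjusted p up to 0.0995 when double mutant mouse 1 or 3 or wild-type mouse 2 or 3 was left out. In the list of the activin and nodal branch, which also held more distant relatives, 1 of 6 tested genes passed (median -0.32). The receptor genes *Acvr1b*, *Acvr1c*, *Acvr2a* and *Acvr2b* and the gene *Fstl3* did not pass. *Gdf15*, a distant TGF-beta relative secreted under stress, measured 0.333, 0.816 and 0.202 CPM in wild-type and 2.44, 2.64 and 2.61 CPM in double mutant mice 1 to 3 (2.52, adjusted p = 0.00499 by edgeR).

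**Figure D5:**
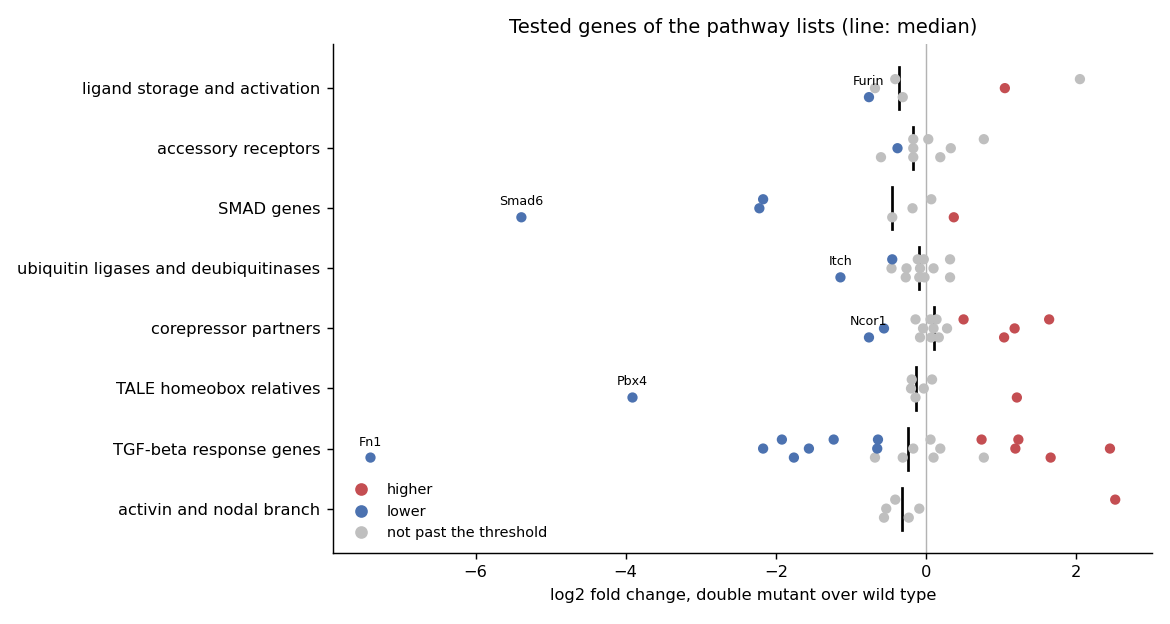
Log2 fold change (double mutant over wild type) of each tested gene in the 8 pathway lists, red for higher, blue for lower and grey for genes that did not pass the test, with a black line at each list's median. Medians run from -0.45 for the SMAD genes to 0.10 for corepressor partners, and *Fn1* (-7.40), *Smad6* (-5.39) and *Pbx4* (-3.91) lie farthest to the left.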

How the data were processed

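Reads were aligned by the authors with HISAT2 (mm9) and assigned to genes by featureCounts, and the deposited values are raw counts in 1 column per mouse, neither normalized nor pooled. The strand setting was not given in the sources used here. Symbols and positions came from the GENCODE annotation of mm9, which held 20032 of 20073 Ensembl identifiers. The other 336 features of the table are numbered transcripts and name no gene used here. In R 4.3.3, genes were filtered by filterByExpr (minimum count 10, minimum total 15), scaled by TMM and tested with the quasi-likelihood test of edgeR 4.0.16, and p-values were adjusted across the 13346 tested genes by the Benjamini-Hochberg method. Intervals are 95% and SD is over 3 mice. RPKM used the union of exons. Marker sums are CPM of the unscaled library total.

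The 10 genes and the lists were chosen with earlier results of these data known. Named are all 10, the targeted genes, up to 2 called genes per list and direction with the largest change, and the 5 genes most like the gene with the smallest adjusted p. A few genes that this rule selects are not reported here. Alternatives used DESeq2 1.42.0, limma 3.58.1 (voom), RLE factors, library size alone, other filters, a replicate block, sex as a covariate, each mouse left out and, chosen after seeing the data, females only and summed levels with the longest transcript lengths. Mouse numbers are those of the sample labels. The tests were checked on simulated counts first.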

Additional observations from a re-analysis of the deposited data

How the results depend on the processing

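*Tgfbr2* and *Tgif1* passed under every alternative run, at log2 fold changes of 2.66 to 3.24 and 2.33 to 2.58. The number of the 10 genes called was 2 except without wild-type mouse 1, where it was 5 (range 2 to 5 with 1 mouse left out), and among females alone, where it was 4. Of all genes tested, 37.4% and 39.9% were called in those fits, and the fit of females also leaves out wild-type mouse 1. With 1 mouse left out, *Tgfb1* ran from -0.26 to 0.27 around its 0.04, being -0.09 without double mutant mouse 2, and it was -0.30 among females alone. *Ski* was 0.02 with library size alone. A log2 fold change past 2 left 708 of 4905 called genes and 7 of 30 in the pathway lists, as a stricter threshold must. Genes called among all tested ran from 3442 to 5144 with 1 mouse left out. Same-numbered mice did not deviate together (correlations of 0.022, -0.109 and 0.012), and the other pairs ran from -0.102 to 0.093. So few correlations cannot exclude a pairing of the mice. The numbers are those of the sample labels and differ from those of the study's sample sheet. The replicate block gave 2 of the 10 genes, 3834 of all genes and 26 in the pathway lists. Lengths of the longest transcript moved 5 of 20 levels by more than 1 SD. Depth limits the 3 ligands, *Tgfbr3* and *Tgif2*, each at 48 counts or fewer in every mouse.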

Other observations

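Across all tested genes, the 5 whose log2 CPM relative to the wild-type mean lay closest to that of *Tgif1* over the 6 libraries were *Nap1l1*, *Ccdc134*, *Sh2d4a*, *Rps12* and *Cdca7*, with root mean square differences of 0.105, 0.176, 0.178, 0.181 and 0.198 log2 units. *Nap1l1*, a histone chaperone, measured 2.05 CPM on average in wild-type mice and 11.1 CPM in double mutants. *Cdca7*, a cell cycle gene, measured 8.19 and 40.4 CPM. *Rps12*, a ribosomal protein gene, measured 33.8 and 151 CPM, and ribosomal protein genes have near-identical pseudogene copies, so its level is uncertain. These genes were picked for their likeness among 13346, so their shared pattern is a description without a test.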
